A study of Rattus norvegicus with 59 samples.

Results

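The change of the silica effect in rat lung between 9 and 18 months after inhalation was estimated for every gene of the deposited lung table. For each gene it is the silica minus air difference at 18 months less the same difference at 9 months, on the log2(FPKM + 0.5) scale, where FPKM is a fragment number scaled by transcript length and library total. A value near 0 means effects of like size at both times. The table held 2887 complete gene entries, and 1278 of them (44.3%) reached an FPKM of 1 in at least 4 of the 59 libraries of the series and were tested. Of the 59 libraries, 19 belong to the 4 groups compared: air at 9 months (n = 4), silica at 9 months (n = 5), air at 18 months (n = 5) and silica at 18 months (n = 5). All were male Fischer F344/DuCrl rats bought at an age of 3 months. The silica groups inhaled crystalline silica at 15 mg/m3 in a whole-body chamber, 6 h a day for 5 days, and the controls inhaled air. Each library came from a piece of lung of 1 rat, and each time had its own air group. The rats at 18 months were older than those at 9 months in both treatments. The air groups account only for age in unexposed lung. In the silica rats, time since exposure and an effect of age on the response to silica cannot be told apart.

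Inhaled silica crystals are taken up by alveolar macrophages, damage their lysosomes and set off an inflammation in which neutrophils enter the lung and the alveolar epithelium grows. The crystals dissolve poorly and remain in the tissue long after exposure has ended. Silicosis, the disease that follows in people, can progress without further exposure, so the months after exposure are of interest in this model.

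Nearly all named entries lay on a single chromosome: 2046 of the 2061 names matched to the rat annotation (99.3%) were on chromosome 1, and genes elsewhere were not analysed here. FPKM sums of the 19 libraries ran from 13010 to 38613, and from 12770 to 16290 without the entry LOC102553223, which took 25818 FPKM in air rat 3 of 9 months. Depth, estimated from the smallest steps between values, ran from 0.432 to 2.27 times that of a typical library. The shallowest libraries were air rat 1 (0.432) and silica rat 4 (0.471) of 9 months. At 18 months the lowest depth was 0.83 in air and 0.94 in silica. Log2 values correlated with those of the other rats of the group at a mean r between 0.921 and 0.970 across genes. The aspartic protease gene Napsa, an alveolar type 2 cell gene that marks lung, was read at 80.5 FPKM or more in every library. The median log2 value of the silica libraries at 18 months was 2.29 to 2.34, against 2.17 to 2.30 in silica at 9 months and at most 2.32 in air at 18 months. Because of this shift the comparisons were run also with libraries centred on their medians and with quantile normalization, and counts that these moved are given beside the main ones.

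No gene passed the test of a changed silica effect. With limma, 0 of 1278 genes (0%) had an adjusted p under 0.05, and the smallest adjusted p was 0.489. At an unadjusted p under 0.05 there were 101 genes (7.9%), 48 with a value above 0 and 53 below. Under the 9 other settings of pseudocount, filter, scaling and variance, 0 genes were called and 86 to 173 had an unadjusted p under 0.05. With single libraries left out, 0 to 2 genes were called, and the 2 calls came without air rat 4 of 9 months (LOC100911930 at -0.75 and RGD1563905 at -0.73, adjusted p = 0.0231). The median standard error of a change was 0.145, and the median 95% interval reached 0.291 to either side, before adjustment. A call over all genes needs more than this interval: Prkcdbp, at 0.58, did not pass.

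The effect itself was called in both months, in fewer genes at 18. At 9 months 249 genes (19.5%) were higher and 144 (11.3%) lower in silica than in air (30.8% in all). At 18 months 151 (11.8%) were higher and 45 (3.52%) lower (15.3% in all). All silica rats lay above all air rats in 204 genes (16%) and below in 110 (8.61%) at 9 months (24.6% together), and in 118 (9.23%) and 24 (1.88%) at 18 months (11.1%). Of the genes called higher, 128 were called at both times, which is 51.4% of the list at 9 months and 84.8% of the list at 18 months. Of those called lower, 26 were called at both times, 18.1% and 57.8% of the lists. No gene was called in opposite directions. After median centring the split was 221 higher and 187 lower at 9 months and 112 and 109 at 18 months, with 97 and 66 shared. After quantile normalization it was 185 and 219, then 103 and 94, with 86 and 64 shared. The call at 18 months leaned on few rats: without silica rat 4 of that time 105 genes were higher, 7 lower and 2 lower at both times. Without air rat 1, 4 or 5 of 18 months the genes called lower there were 29, 24 and 28. A smaller count at 18 months does not show that an effect receded, since the change itself passed for no gene.

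**Figure D1:**
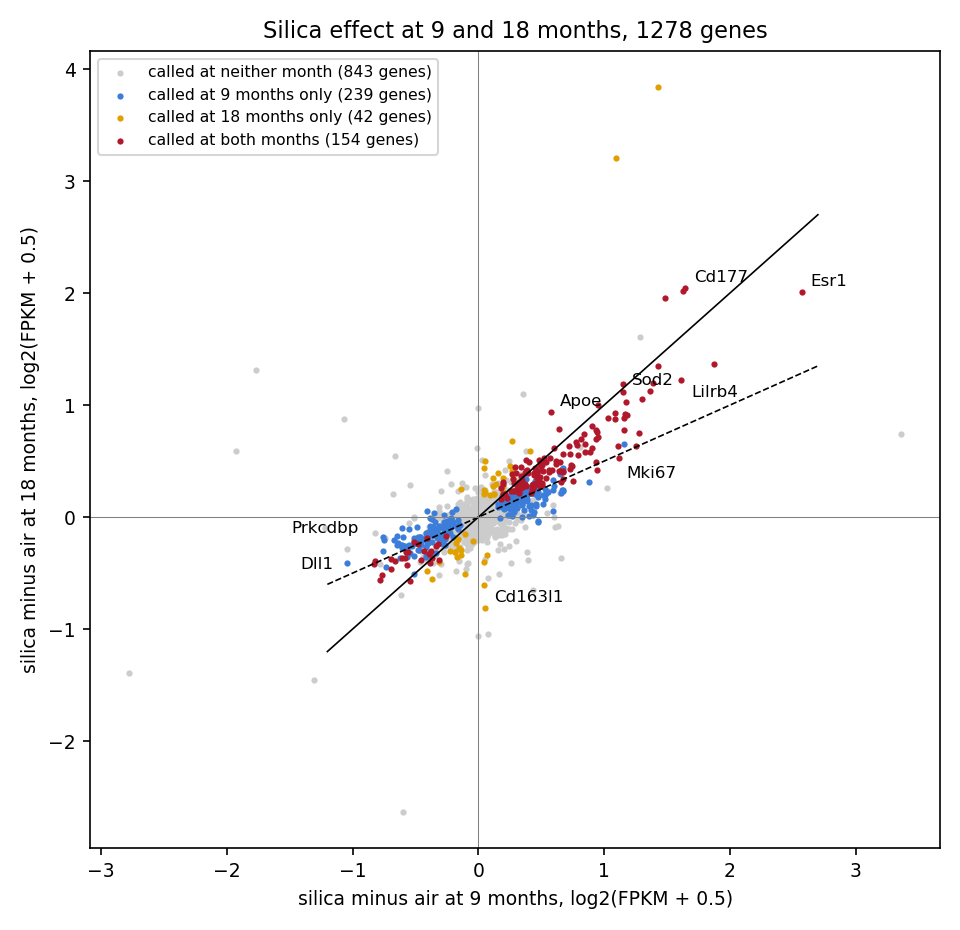
Log2 silica effect at 9 months (x axis) against that at 18 months (y axis), 1 point for each of the 1278 tested genes, coloured by the months at which the gene was called. The solid line marks equal effects and the dashed line 0.5 of the effect at 9 months. Most points called at 9 months lie between the x axis and the solid line, Cd177 lies above the solid line at 1.65 and 2.04, and Prkcdbp near -0.76 and -0.18.

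A set of responders that uses neither of these months was examined next. In the mean of months 1, 3, 6 and 12, whose rats and air controls are separate, 438 genes (34.3%) were higher and 176 (13.8%) lower in silica (48% in all). The median effect of the 438 was 0.27 at 9 months and 0.19 at 18 months, and the change was below 0 in 301 of them (68.7%) with a median of -0.071. The median effect of the 176 was -0.30 at 9 months and -0.18 at 18 months, and the change was above 0 in 134 (76.1%) with a median of 0.099. Over all tested genes the change was below 0 in 52.1% with a median of -0.011. Without air rat 3 of 18 months the median of the 438 was -0.039, and the medians without other single libraries ran from there to -0.086 and, for the 176, from 0.086 to 0.15. Genes are not independent of each other, so these medians are descriptions with no test. Among genes called at 9 months the medians were -0.16 for the 249 higher and 0.22 for the 144 lower, but those genes were picked for large values at 9 months, which by itself moves the later value toward 0.

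Among genes called lower in silica at 9 months, the smallest p of the change belonged to Prkcdbp and Ehd2, both genes of caveolae. Prkcdbp, also known as Cavin3, a coat protein of caveolae, had the smallest p of all genes. Its FPKM in air at 9 months was 13.8, 16.3, 12.8 and 13.4, and in silica 9.47, 9.63, 6.92, 7.59 and 7.23. At 18 months it was at 12.5, 13.3, 15.6, 13.0 and 11.7 in air and 13.6, 9.84, 10.2, 11.2 and 13.4 in silica. All silica rats lay below all air rats at 9 months, whereas at 18 months the groups overlapped, with silica rats 1 and 5 among the air values. The effect was -0.76 ± 0.11 (SE; limma adjusted p = 8.44e-07) at 9 months and -0.18 ± 0.10 (adjusted p = 0.248) at 18 months. The change was 0.58 ± 0.15 with a 95% interval of 0.27 to 0.88, and it did not pass over all genes (unadjusted p = 0.000383, limma adjusted p = 0.489). With each library left out it stayed between 0.51 and 0.64. Its effect was -0.26 at 6 months and -0.55 at 12 months, so the value at 9 months was the lowest of the 4 late times.

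Ehd2, an ATPase that sits at the neck of caveolae, had tight groups. Its FPKM was 60.9, 64.9, 62.6 and 60.5 in air and 43.7, 46.1, 44.4, 44.3 and 43.7 in silica at 9 months. By 18 months it was at 60.7, 65.0, 63.1, 59.3 and 59.1 in air and 55.0, 56.6, 54.0, 46.6 and 59.7 in silica. The 5 silica rats of 9 months lay far below every air rat, while at 18 months only silica rat 5 reached the air range and rat 4 stayed near the values of 9 months. The effect was -0.48 ± 0.07 at 9 months (adjusted p = 7.67e-07) and -0.18 ± 0.07 at 18 months (adjusted p = 0.0538), with a change of 0.30 ± 0.10 (SE; unadjusted p = 0.0026, limma adjusted p = 0.557).

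The list of endothelial and Notch genes had 33 names, of which 10 were in the table and 9 were tested. At 9 months 8 of the 9 were called lower, against 11.3% of all tested genes, and at 18 months 0 were called, against 3.52%. With single libraries left out, 7 to 9 were lower at 9 months and 0 or 1 at 18 months (1 without silica rat 2 or 5 of 18 months). The counts were 9 and 1 under median centring and 9 and 0 after quantile normalization. The median effect went from -0.60 to -0.18. The change was above 0 in 9 of 9, with a median of 0.42, beside 47.9% of all tested genes and a median of -0.011. Ptgir, the prostacyclin receptor, had an effect of -0.65 and then -0.17, and Rasip1, an endothelial adaptor of small GTPases, -0.60 and -0.18. Dll1, a Notch ligand, had -1.05 ± 0.23 and -0.41 ± 0.22, with overlapping groups at both months, as air rat 2 of 9 months was at 2.79 FPKM and silica rat 2 at 3.13. The change of Dll1 was 0.64 with an interval of 0.01 to 1.27 (limma adjusted p = 0.612). The summed FPKM of the list was 117 to 124 in air and 76.6 to 88.9 in silica at 9 months, and 110 to 127 in air and 87.6 to 115 in silica at 18 months. Several members were put on the list because they were known to be lower in silica in these data, so its counts support nothing beyond its members. The lists named below were also chosen with earlier results of these data known, and the same limit holds for their counts. The median effect of 6 heart and striated muscle genes was -0.64 and -0.21 and their median change 0.43, but single libraries moved that change between 0.03 (without silica rat 4 of 9 months) and 0.80 (without silica rat 1 of 9 months). The part of muscle content in the endothelial values was not tested. In a piece of tissue, fewer cells that express the listed genes and less RNA per cell cannot be told apart. Which cells held this RNA was not measured.

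Dchs1, a large protocadherin, had an effect of -0.61 at 9 months and -0.10 at 18 months, and Serpinh1, the collagen chaperone HSP47, -0.37 and -0.02. In Serpinh1 nearly all of the change lay in the air arm, which differed by -0.30 between the months, against 0.04 in silica: air means were 50.9 ± 2.45 FPKM (SD, n = 4) and 41.3 ± 3.29 (n = 5), while silica means were 39.6 ± 4.34 and 40.7 ± 1.74. Crebzf, a bZIP protein that binds host cell factor, had -0.21 and 0.05. Its call at 9 months ended without air rat 2 or silica rat 3 of that time (adjusted p = 0.0536 and 0.0522). Ahi1, a ciliary transition zone gene, had -0.14 and 0.25. Its call at 18 months rested on silica rats 2 and 5, at 8.05 and 6.89 FPKM beside 4.62 to 5.03 in the other 3: without them the adjusted p was 0.202 and 0.107, and it was above 0.05 also without air rat 1, 2 or 5 (0.0527, 0.0671 and 0.0614) and under both scalings (0.0833 and 0.0950). For these genes the unadjusted p of the change was 0.00204 to 0.00636 and the limma adjusted p 0.557 or more.

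**Figure D2:**
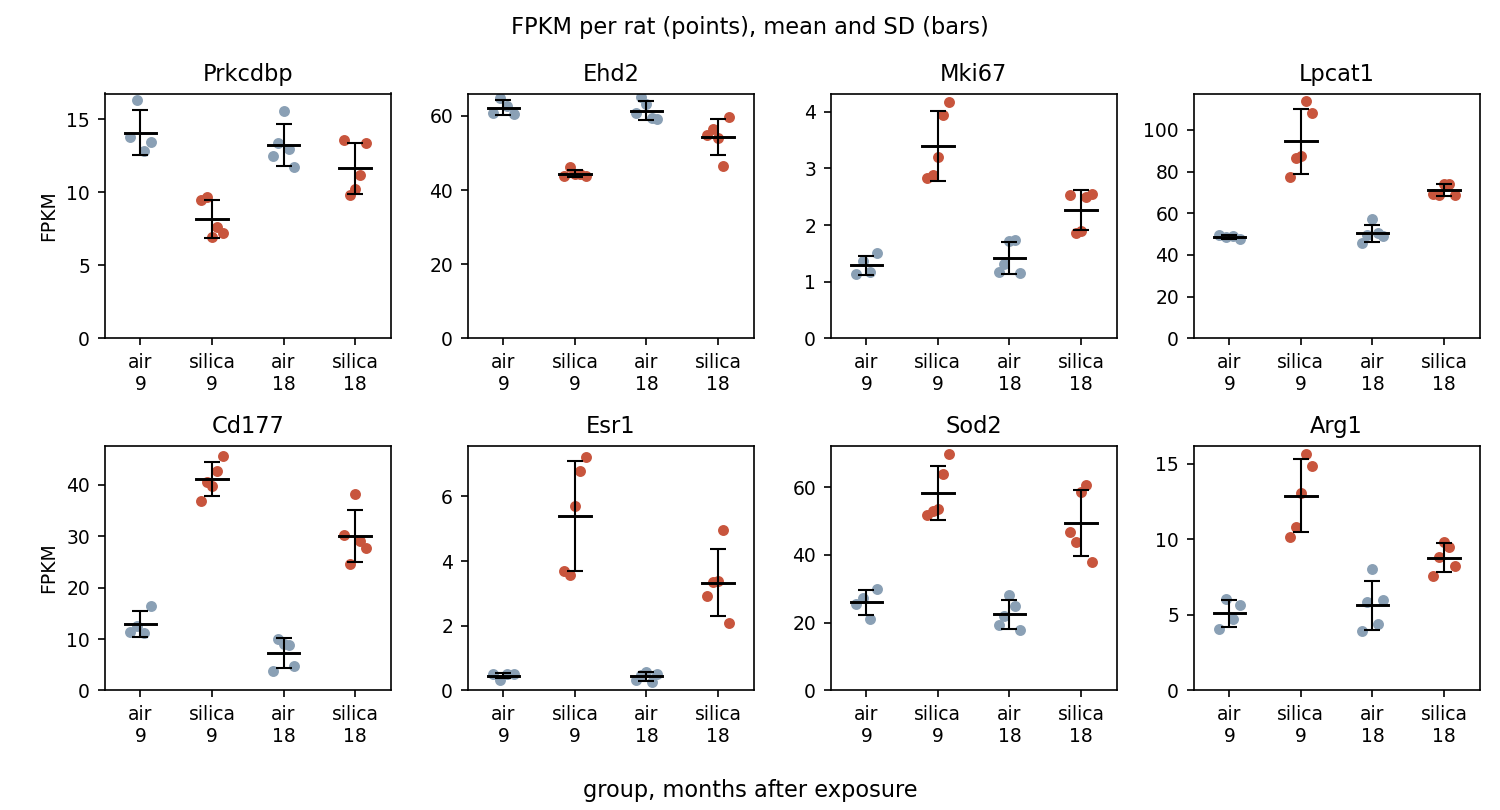
FPKM of 8 genes (y axes, from 0) in the 4 groups (x axes), 1 point per rat, with the group mean and SD as bars. Prkcdbp and Ehd2 in silica sit below air at 9 months and close to it at 18 months, Mki67, Lpcat1 and Arg1 in silica sit nearer to air at 18 months, and Cd177, Esr1 and Sod2 stay apart from air at both times.

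Among genes higher in silica the proliferation marker Mki67 had the smallest p for a decline of the effect. Its FPKM was 1.14, 1.36, 1.17 and 1.5 in air and 2.82, 2.89, 3.20, 3.94 and 4.17 in silica at 9 months. Later, at 18 months, it was at 1.17, 1.31, 1.72, 1.73 and 1.15 in air and 2.53, 1.86, 1.89, 2.49 and 2.55 in silica. Silica lay above air in every rat at both months, and the lowest silica value of 9 months exceeded the highest of 18 months. Mki67 rose 2.17-fold at 9 months (log2 1.11 ± 0.14, adjusted p = 5.22e-08) and 1.45-fold at 18 months (0.53 ± 0.13, adjusted p = 0.00375). Folds here and below are ratios of FPKM + 0.5, which for a low gene such as Mki67 are smaller than ratios of FPKM. Its mean FPKM was 1.29 in air and 3.40 in silica at 9 months, and 1.42 and 2.27 at 18 months. The change was -0.58 ± 0.19, interval -0.97 to -0.20, and did not pass (unadjusted p = 0.0037, limma adjusted p = 0.557). At 6 and 12 months the effect was 0.86 and 0.74.

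Of 11 tested cell cycle genes 7 were called higher at 9 months and 5 at 18 months, against 19.5% and 11.8% of all tested genes, and none was called lower. With single libraries left out the second count ran from 3 (without silica rat 4 or 5 of 18 months) to 5, and it was 3 after median centring. The change was below 0 in 10 of 11, with a median of -0.19, beside 52.1% of all tested genes and a median of -0.011. The list includes Iqgap1, a cytoskeletal scaffold rather than a marker of dividing cells. Iqgap1 was called higher at both months and at neither after quantile normalization (limma adjusted p = 0.0534 and 0.374). Blm, a DNA helicase, had 0.40 and 0.01, and Lig1, the replicative DNA ligase, 0.34 and 0.15, while Rrm1, a ribonucleotide reductase subunit, had 0.43 and 0.25. The later call of Rrm1 ended under median centring (adjusted p = 0.0531). It ended also without air rat 1 or silica rat 4 or 5 of 18 months (0.0522 to 0.124). Kif22, a kinesin that moves chromosome arms, had effects of 0.95 and 0.42. The call of Kif22 at 18 months ended under median centring (adjusted p = 0.0603) and without any of 7 libraries of that month, air rats 2, 4 and 5 and silica rats 1, 2, 4 and 5 (0.0576 to 0.144). Prc1, which bundles microtubules of the dividing spindle, had 0.79 and 0.65, with all silica rats above all air rats at both months. Its change was -0.14, interval -0.54 to 0.26. Blm, Rrm1, Kif22 and Prc1 fall outside the rule for naming genes and were chosen after their values were seen. Pold1, which the rule names, had 0.17 and -0.05 and was called at neither month (limma adjusted p = 0.189 and 0.750).

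Many genes of mitosis carry CCAAT boxes, bound by NF-Y, and a cell cycle homology region (CHR), bound by repressor and activator complexes of the cell cycle, just before their start. The promoters of Mki67, Kif22 and Prc1 are printed because they are the 3 of this list found to hold the CHR letters. Blm and Wee1 had no promoter entry and were not searched. Each is the 250 bases before the start, 5′ to 3′ on the gene's strand, from the RefSeq sequences of build GRCr8, at chr1:199952594-199952843 (minus strand) for Mki67, chr1:143659231-143659480 (plus) for Prc1 and chr1:191080879-191081128 (minus) for Kif22. Capitals mark TTTGAA (CHR) and CCAAT on either strand.
Mki67: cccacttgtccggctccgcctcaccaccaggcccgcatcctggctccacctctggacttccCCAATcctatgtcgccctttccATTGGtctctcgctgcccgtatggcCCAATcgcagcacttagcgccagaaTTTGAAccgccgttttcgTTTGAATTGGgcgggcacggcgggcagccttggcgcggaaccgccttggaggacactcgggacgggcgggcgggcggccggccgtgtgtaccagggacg
Prc1: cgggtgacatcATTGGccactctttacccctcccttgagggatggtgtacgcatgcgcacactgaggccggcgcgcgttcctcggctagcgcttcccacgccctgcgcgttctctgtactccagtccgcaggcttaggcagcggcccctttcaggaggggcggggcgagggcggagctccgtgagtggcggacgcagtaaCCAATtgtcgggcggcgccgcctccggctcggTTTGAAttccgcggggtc
Kif22: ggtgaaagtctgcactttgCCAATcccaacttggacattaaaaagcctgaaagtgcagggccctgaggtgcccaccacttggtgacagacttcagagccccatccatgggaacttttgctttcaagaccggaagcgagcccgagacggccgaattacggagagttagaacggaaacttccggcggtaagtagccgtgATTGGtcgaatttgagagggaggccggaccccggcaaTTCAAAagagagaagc
Mki67 held 2 matches to TTTGAA and 4 to CCAAT, one of which overlaps a TTTGAA match by its last letter, and Prc1 and Kif22 held 1 and 2 each. Of the 9 list genes with a promoter entry, 3 held TTTGAA and 7 held CCAAT, whereas 16.2% and 34% of 33469 promoters of this length did. Iqgap1, which held neither, is among the 9. A match is a description of letters and not of binding, and the effects of the 3 genes at 18 months, 0.53, 0.42 and 0.65, differ in how far they lie below those at 9 months.

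The list of alveolar type 2 genes had 16 names, of which 4 were in the table, and its surfactant protein genes were not among them. Of the 4 tested, all were called higher in silica at 9 months and 3 at 18 months, against 19.5% and 11.8% of all tested genes. Lpcat1, the acyltransferase that makes the main surfactant lipid, was at 49.6, 48.4, 49.0 and 47.7 FPKM in air and 77.4, 86.5, 87.3, 114 and 108 in silica at 9 months. At 18 months it was at 45.8, 49.7, 57.1, 50.3 and 49.2 in air and 69.2, 68.8, 74.3, 74.1 and 68.6 in silica. No silica rat overlapped an air rat, and all 5 silica values of 18 months were below all 5 of 9 months. Lpcat1 rose 1.92-fold at 9 months (0.94 ± 0.11, adjusted p = 7.31e-09) and 1.41-fold at 18 months (0.49 ± 0.10, adjusted p = 0.000497), and the change was -0.44 ± 0.15 (interval -0.74 to -0.15, unadjusted p = 0.00402, limma adjusted p = 0.557). Napsa, which processes surfactant protein B, had 0.85 and 0.58, Cebpa 0.54 and 0.35 and Cebpg 0.30 and 0.14. Cebpg was the member not called at 18 months, and the median change of the list was -0.23. The count at 18 months was 2 or 3 with single libraries left out and 2 after quantile normalization. The call of Napsa at 18 months ended under quantile normalization (0.22, adjusted p = 0.192), and that of Cebpa without air rat 1 or silica rat 1 of 18 months (adjusted p = 0.0873 and 0.0511).

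Of 10 tested iron, haem and oxidant genes, 9 had a smaller absolute effect estimate at 18 months, as did 67.0% of all tested genes. Among all genes called higher at 9 months, picked for large values then, the share was 89.2%. None of the changes of the 10 genes passed. Ftl1, the ferritin light chain, was at 166 to 268 FPKM in silica and 90.0 to 112 in air at 9 months. By 18 months it was at 145 to 220 in silica and 107 to 149 in air, where silica rat 5 lay below air rat 3. Its effects were 1.11 and 0.64 and its change -0.47, interval -0.95 to 0.001 (limma adjusted p = 0.614). Quantile normalization ended its call at 18 months (0.36, adjusted p = 0.144). Vnn1, a pantetheinase, had 0.44 and 0.04. Of 10 tested genes of the list 6 were called higher at 9 months and 3 at 18 months, against 19.5% and 11.8% of all tested genes. With single libraries left out the counts ran from 4 to 7 and from 2 to 4, and after quantile normalization they were 4 and 1. The median change was -0.19, with all 10 values below 0, beside 52.1% of all tested genes and a median of -0.011. With single libraries left out the sign turned for Hamp, which ran from -0.66 to 0.23, and for Sod2, from -0.11 to 0.06.

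Arg1 and Enpp3 were called at both months with a smaller estimate at 18. Arg1, arginase, an enzyme of alternatively activated macrophages in rodents, was at 10.1, 10.8, 13.0, 15.6 and 14.9 FPKM in silica and 4.04 to 6.02 in air at 9 months, and at 7.54, 8.84, 9.83, 9.50 and 8.23 in silica and 3.94 to 8.03 in air at 18 months. At 18 months silica rat 1 lay below air rat 3, at 8.03. The effect was 1.25 ± 0.19 and 0.63 ± 0.18, and the change -0.62, interval -1.15 to -0.08 (limma adjusted p = 0.612). Without air rat 1 of 18 months the later effect was 0.53 (adjusted p = 0.0651). Enpp3, an ectoenzyme of basophils and epithelia that splits extracellular nucleotides, had effects of 1.28 and 0.75 and a change of -0.53 (limma adjusted p = 0.612), with no overlap of silica and air at either month.

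Other genes with a small p and a change below 0 included Zc3h12d, an RNase of lymphocytes, called at 9 months (0.47) and not at 18 (-0.05), and genes not called at 9 months. Znf471, a zinc finger gene, had 0.07 and -0.33 (called at 18 months), and Fah, the last enzyme of tyrosine breakdown, 0.16 and -0.29. Bcat2, which starts the breakdown of branched-chain amino acids in mitochondria, had 0.22 and -0.15. In several of these the air groups differed between the months by more than the silica groups. Zc3h12d differed by 0.40 in air and -0.11 in silica and Fah by 0.34 and -0.12, none of them called. For Bcat2, air rose by 0.44 from 9 to 18 months (adjusted p = 0.00508), from 8.14 to 9.14 FPKM to 11.1 to 14.3, while silica differed by 0.08 (adjusted p = 0.685). None of these changes passed (limma adjusted p = 0.557 to 0.573).

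**Figure D3:**
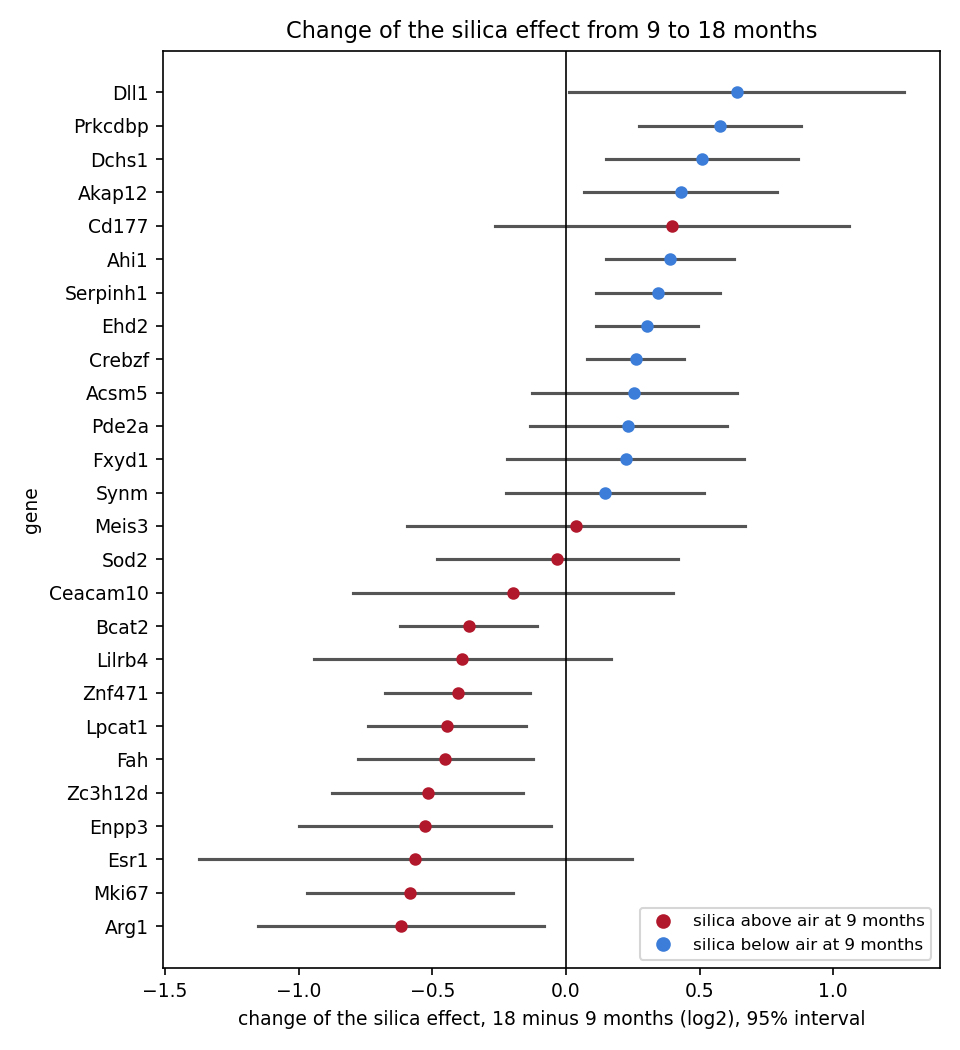
Change of the log2 silica effect from 9 to 18 months (x axis, points) with 95% intervals (lines) for 26 genes (y axis), coloured by the direction of the effect at 9 months. Prkcdbp at 0.58 and Mki67 at -0.58 lie clear of 0 with their unadjusted intervals, whereas the intervals of Sod2, Meis3 and Cd177 include 0, and no gene passed after adjustment over all genes.

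Most neutrophil genes called at 9 months were called again at 18 months. Cd177, a surface glycoprotein of neutrophils, was at 11.4, 12.5, 11.2 and 16.5 FPKM in air and 36.8, 40.5, 39.8, 42.7 and 45.5 in silica at 9 months. Later, at 18 months, it was at 3.80, 9.99, 9.09, 8.87 and 4.68 in air and 30.2, 24.7, 38.3, 29.1 and 27.8 in silica. Silica exceeded air in every rat at both months, and both groups were lower at 18 months, with air rats 1 and 5 lowest. Cd177 rose 3.13-fold at 9 months (1.65 ± 0.24, adjusted p = 8.44e-07) and 4.13-fold at 18 months (2.04 ± 0.23, adjusted p = 1.64e-09). The change was 0.40, interval -0.26 to 1.06. From 9 to 18 months Cd177 differed by -0.86 in air and by -0.46 in silica, neither called. The larger effect at 18 months thus came with a larger fall in air and no rise in silica. In the test of whether the effect at 18 months differed from 0.5 of that at 9 months, Cd177 exceeded it by 1.22 (limma adjusted p = 0.00677), as did LOC100909700 and LOC103691058, which followed Cd177 closely and may share reads with it. These 3 were the only entries called in that test (0.235% of genes). Without air rat 1 or 5 of 18 months the adjusted p of Cd177 was 0.079 and 0.0554. LOC103691058 was called lower in air at 18 than at 9 months (-1.06, limma adjusted p = 0.00508). No gene was shown to retain less than 0.5 of its effect, with 84 genes (6.57%) at an unadjusted p under 0.05 in either direction.

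Of 8 tested neutrophil and granulocyte genes 7 were called higher at 9 months and 6 at 18 months, against 19.5% and 11.8% of all tested genes. The list was chosen with earlier results of these data known, so its counts support nothing beyond its members. These counts did not move with any single library left out or under either scaling, though 1 gene was also called lower at 9 months under both scalings. Ceacam10, an adhesion molecule, had 1.39 and 1.19, Itgam, the integrin alpha M of neutrophils and macrophages, 1.17 and 1.03, and Plaur, the urokinase receptor, 1.09 and 0.93. Fcar, the IgA receptor, had 0.90 and 0.81 and C5ar1, a receptor of complement C5a, 0.78 and 0.67. C5ar2, its second receptor, had 0.46 and 0.27 and was called only at 9 months. Ceacam1, also on the list, went the other way, with -0.18 and -0.07, and was called at neither month (limma adjusted p = 0.0953 and 0.605). The change of the list had a median of -0.13, and its interval included 0 in each gene named here. The summed FPKM of the list was 38.4 to 48.8 in air and 79.7 to 98.9 in silica at 9 months, then 31.3 to 40.5 and 68.7 to 83.9. Neutrophil number and RNA per neutrophil were not measured apart.

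Of 23 tested myeloid receptor genes 13 were higher and 1 lower at 9 months, against 19.5% and 11.3% of all tested genes. At 18 months 12 were higher and 0 lower, against 11.8% and 3.52%, with 10 higher at both and a median change of -0.05. With single libraries left out the genes higher ran from 11 to 14 at 9 months and from 11 to 13 at 18 months. Lilrb4, an inhibitory receptor, had 1.61 and 1.22, Cd33, a sialic acid binding receptor, 1.16 and 0.89, and Itgax, the integrin alpha X of alveolar macrophages and dendritic cells, 0.60 and 0.62. Siglec5 and Nlrp12 were called at 18 months only. Siglec5, another sialic acid binding receptor, was at 3.67 to 4.49 FPKM in air and 3.92 to 4.38 in silica at 9 months. At 18 months it was at 3.70, 3.71, 3.48, 3.86 and 4.22 in air and 4.97, 6.55, 4.94, 4.86 and 5.46 in silica, with every silica rat above every air rat. Its effect was 0.05 ± 0.10 and then 0.44 ± 0.10 (adjusted p = 0.000817), and its change 0.39, interval 0.11 to 0.67 (unadjusted p = 0.00698, limma adjusted p = 0.573). At 6 and 12 months the effect was 0.36 and 0.01, so it did not run in 1 direction over time. Nlrp12, an inhibitory sensor of myeloid cells, had 0.06 and 0.50, and without silica rat 2 of 18 months, at 2.58 FPKM, the later effect was 0.34 (adjusted p = 0.0653).

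Esr1, Sod2 and Meis3 were called at both months, though none passed the test against 0.5 of the effect at 9 months (limma adjusted p = 0.701, 0.336 and 0.613). Esr1, estrogen receptor alpha, was at 0.33 to 0.51 FPKM in air and 3.70, 3.58, 5.70, 6.78 and 7.23 in silica at 9 months. By 18 months it was at 0.27 to 0.56 in air and 2.93, 3.34, 3.37, 4.96 and 2.08 in silica, far above every air rat at both times. The effect was 2.57 ± 0.29 (adjusted p = 7.31e-09) and 2.01 ± 0.28 (adjusted p = 5.89e-07), and the change -0.56, interval -1.37 to 0.25. Sod2, the mitochondrial superoxide dismutase, was at 51.8, 53.1, 53.6, 63.9 and 69.7 FPKM in silica at 9 months and 46.8, 43.9, 58.7, 60.6 and 37.8 at 18 months, against 21.2 to 30.0 and 17.9 to 28.2 in air. Its effects were 1.15 and 1.12, and its change -0.03, interval -0.48 to 0.42, whose sign turned with 7 of the 19 libraries left out (0.06 at most). Meis3, a homeobox gene, had 1.15 and 1.18, with groups that overlapped at 18 months, where air rat 3 was at 4.18 FPKM and silica rat 2 at 3.09. Its change was 0.04, interval -0.60 to 0.67. Tmem86a, a lysoplasmalogenase, had 1.30 and 1.05.

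Genes lower in silica at both months were fewer. Fxyd1, a regulator of the sodium pump, was at 15.1 to 21.1 FPKM in air and 7.30 to 14.7 in silica at 9 months, and at 16.5 to 21.7 and 8.97 to 16.5 at 18 months, and fell by 0.78 and 0.56. The groups were apart at 9 months and overlapped at 18. Without silica rat 4 of 18 months its later effect was -0.44 (adjusted p = 0.0688). Acsm5, a mitochondrial acyl-CoA synthetase, fell by 0.77 and 0.51, Pde2a, a phosphodiesterase of cyclic nucleotides, by 0.70 and 0.46, and Synm, an intermediate filament protein of muscle cells, by 0.57 and 0.42. In a fit of the 4 groups alone Acsm5 had an adjusted p of 0.0584 at 18 months. Without air rat 1 or silica rat 4 of 18 months Synm had an adjusted p of 0.0527 and 0.0967. Akap12, a scaffold of protein kinase A, had -0.82 and -0.39, with no overlap of the groups at either month, and the change was 0.43 (limma adjusted p = 0.612). Its call at 18 months ended without any of 5 libraries, air rats 1, 2 and 4 and silica rats 1 and 4 of that month (adjusted p = 0.0511 to 0.122). Slc7a10, an amino acid transporter of fat cells and neurons, had -0.83 and -0.42, and its later call ended without any of 7 libraries of 18 months, air rats 1, 2, 4 and 5 and silica rats 1, 3 and 4 (0.0552 to 0.192). Ppp1r14a, an inhibitor of myosin phosphatase in smooth muscle, had -0.76 and -0.30 and was called at 9 months only, though silica lay below air in every rat at both months. Its later effect was called after quantile normalization and in the fit of the 4 groups alone (adjusted p = 0.0467 and 0.0484).

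**Figure D4:**
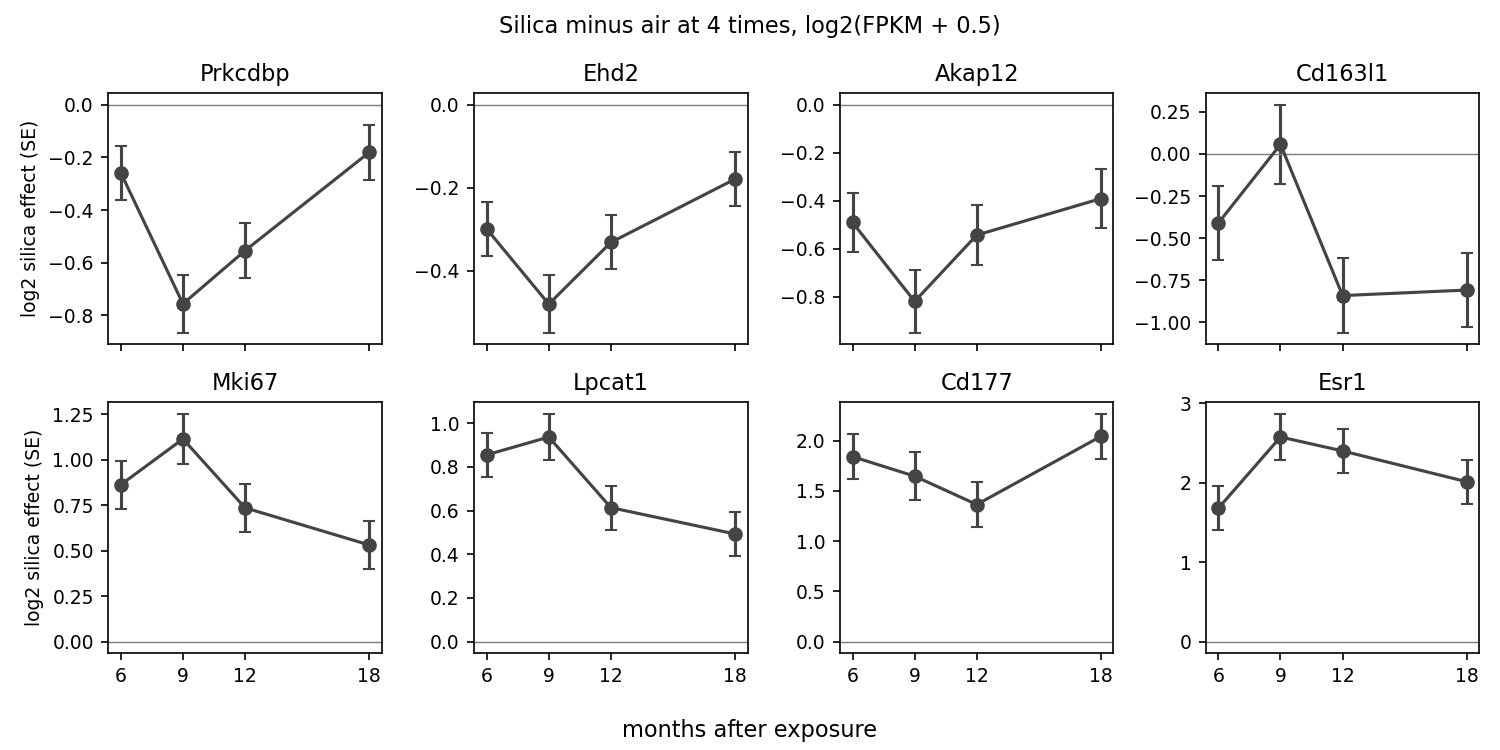
Log2 silica effect (y axes, estimate with SE) at 6, 9, 12 and 18 months (x axes) for 8 genes. Prkcdbp, Ehd2 and Akap12 have their lowest value at 9 months, Mki67 and Lpcat1 their highest, and Cd177 and Esr1 stay at or above 1.36 throughout.

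Some genes had a larger estimate at 18 than at 9 months. Apoe, the apolipoprotein of macrophages and lipid particles, was at 116, 164, 132 and 126 FPKM in air and 159, 181, 172, 276 and 233 in silica at 9 months. Later, at 18 months, it was at 162, 168, 201, 186 and 200 in air and 469, 258, 235, 840 and 222 in silica, where rats 4 and 1 stood far above the other 3. The effect was 0.58 ± 0.21 and 0.94 ± 0.20, and the change 0.36, interval -0.21 to 0.93. Without silica rat 4 of 18 months the effect there was 0.62 (adjusted p = 0.00773) and the change 0.04. Quantile normalization ended the later call (0.50, adjusted p = 0.0966), and the call at 9 months ended without air rat 1, 3 or 4 or silica rat 4 or 5 of that month (adjusted p = 0.0544 to 0.105) and in the fit of the 4 groups alone (0.159). Oscar, an activating receptor of myeloid cells, had 0.64 and 0.79. Folr1, a folate receptor, had 0.27 and 0.68, but silica rats 2 and 5 were at 4.02 and 4.19 FPKM and the other 3 at 1.19 to 1.64, inside or near the air range. Its call ended without either of those rats (adjusted p = 0.164 and 0.169), without air rat 1, 2, 4 or 5 (0.0519 to 0.130) and under median centring (0.0535).

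Cd163l1, a scavenger receptor of macrophages and gamma delta T cells, was at 1.18 to 1.96 FPKM in air and 1.47, 4.04, 1.06, 1.47 and 0.84 in silica at 9 months. At 18 months it was at 1.41, 2.07, 2.45, 1.89 and 1.27 in air and 0.66, 0.73, 0.99, 0.81 and 0.84 in silica, all silica rats below all air rats. The effect was 0.06 and then -0.81 (adjusted p = 0.00912), and the change -0.87, interval -1.51 to -0.22 (limma adjusted p = 0.573). Silica rat 2 of 9 months decided the earlier value: without it the effect was -0.23 and the change -0.58. At 6 and 12 months the effect was -0.41 and -0.84. Cyp2e1, an ethanol-oxidising cytochrome P450, had 0.05 and -0.61, Hbb, a beta globin, -0.37 and -0.55, and Lhb, a gonadotropin subunit, -0.41 and -0.48. Cyp2e1 differed between the months by 0.62 in air and -0.03 in silica, neither called. The later calls of Cyp2e1, Hbb and Lhb ended in 8, 8 and 6 of the other settings, so they are given as values only. The highest points at 18 months, LOC100910212 and LOC102553726, are placeholder entries listed at 0 in some libraries and above 0 in others, and no fold is given for them.

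Each treatment was then compared with itself across the months. In air 7 genes (0.548%) differed between 9 and 18 months, 6 higher (0.469%) and 1 lower (0.0782%), and in silica 89 (6.96%), 71 higher (5.56%) and 18 lower (1.41%). The silica split depended on scaling, at 33 higher and 48 lower after median centring and 52 and 31 after quantile normalization, and air had 13 calls after median centring and 9 after quantile normalization. Prkcdbp rose by 0.49 from 9 to 18 months in silica (adjusted p = 0.00226) and differed by -0.09 in air (adjusted p = 0.784), and Ehd2 rose by 0.28 in silica (adjusted p = 0.00573) and differed by -0.02 in air. Lpcat1 fell by 0.40 in silica (adjusted p = 0.012), a call that ended without silica rat 4 of 9 months (adjusted p = 0.0581), and differed by 0.05 in air. Mki67 fell by 0.49 in silica (adjusted p = 0.016) and differed by 0.09 in air, but its silica call ended without silica rat 4 or 5 of 9 months or rat 2 of 18 months (adjusted p = 0.0541, 0.0644 and 0.0589). A call in silica and none in air is no test of a difference between them, and that difference, the change of the effect, passed for none of these genes. Perp, a desmosome protein, rose in both arms, by 0.61 in air and 0.49 in silica. Ctgf, a matrix growth factor, rose by 0.50 and 0.44, though its call in air ended without air rat 3 of 9 months or air rat 1 of 18 months (adjusted p = 0.0545 and 0.073), and its silica effect was 0.12 and 0.06.

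The counts of the remaining lists stand beside 19.5% of all tested genes higher and 11.3% lower at 9 months, and 11.8% and 3.52% at 18 months. Lists share members, so their counts are not separate findings. Napsa is on the alveolar and lysosome lists, Lpcat1 on the alveolar and fat lists, and Ptgir on the endothelial and prostacyclin lists. Lysosome and peptidase genes, with 12 tested, had 11 higher at 9 months and 9 at 18 months (5 after quantile normalization) with a median change of -0.13. Matrix and TGF-beta genes, with 18 tested, had 6 higher and 6 lower at 9 months and 4 higher and 1 lower at 18 months. After quantile normalization 2 were higher at each month, and the lower one lost its call without air rat 3 or 4 or silica rat 4 of 18 months. Fat storage and lipid genes, with 15 tested, had 5 higher and 3 lower at 9 months and 5 and 2 at 18 months, with medians of 0.54 and 0.05. Single libraries decided these medians, as the first was 0.24 without air rat 1 of 9 months and the second 0.27 without air rat 3 and 0.16 without air rat 4 of 18 months. The genes lower at 18 months were 1 without any of air rats 1, 2, 4 and 5 or silica rats 3 and 4 of that month. Tgfb1, the fibrogenic growth factor, had 0.16 and 0.39, and its later call ended under both scalings (adjusted p = 0.0543 and 0.0674) and without air rat 4 or silica rat 4 of 18 months (0.0744 and 0.0763). Furin, which cleaves its precursor, had 0.27 and 0.38. The earlier call of Furin ended after quantile normalization (0.20, adjusted p = 0.107). It ended also without air rat 2 or silica rat 4 or 5 of 9 months (0.0563 to 0.107). Of 6 adenylyl cyclase and prostacyclin genes 5 were lower at 9 months and 2 at 18 months, with a median change of 0.25. The first count was 3 without air rat 4 or silica rat 5 of 9 months, and the second 1 without air rat 1, 2 or 4 or silica rat 1 or 4 of 18 months. B cell markers, with 4 tested, had no call at either month (1 lower at 18 months under both scalings) and a median change of -0.23, which ran from -0.40 without silica rat 4 to -0.08 without silica rat 2 of 9 months and was -0.12 and -0.10 without air rat 3 and silica rat 1 of that month. Of 5 erythrocyte markers 3 were lower at 9 months and 2 at 18 months. The first count was 0 without air rat 4 and 1 without air rat 2 or silica rat 4 of 9 months. The second was 0 without air rat 3 or 4 or silica rat 3 or 4 of 18 months and after quantile normalization, and 1 without air rat 1. Their summed FPKM, 1749 to 2295 in air and 1057 to 2008 in silica at 9 months, was 2798 to 3924 and 1499 to 2689 at 18 months. Of 6 tested heart and striated muscle genes 1 was lower at each month (0 at 18 months without air rat 4 or 5 or silica rat 2 or 4 of that month). In 5 of them the change was above 0, beside 47.9% of all tested genes, with a median of 0.43. The summed FPKM of the 12 such genes in the table was 18.3 to 39.4 in air and 6.36 to 46.1 in silica at 9 months, then 9.35 to 40.2 and 5.79 to 24.2, with overlapping groups. The part of blood or heart content in the other results was not tested.

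**Figure D5:**
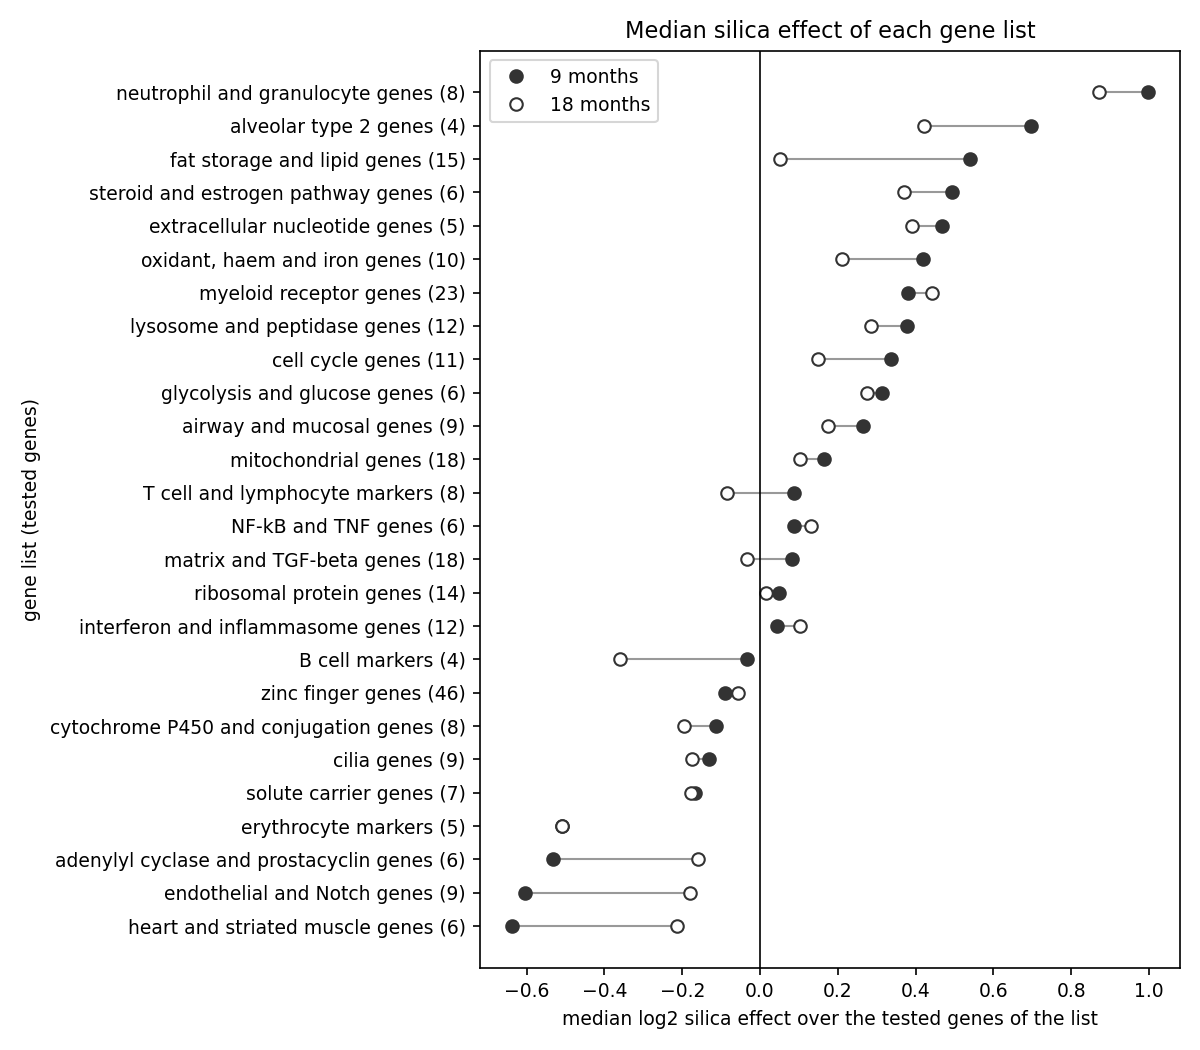
Median log2 silica effect (x axis) of each gene list with at least 4 tested genes (y axis, number tested in brackets) at 9 months (filled) and 18 months (open). The endothelial and Notch list moves from -0.60 to -0.18, the cell cycle list from 0.34 to 0.15, the neutrophil list lies at 1.00 and 0.87, and the heart and fat lists have unlike medians at the 2 months that single libraries moved.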

How the data were processed

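Per the labels' protocols, total lung RNA was depleted of ribosomal RNA and sequenced. Tools named in the submitters' processing notes are Cufflinks 2.1.1, TopHat2 2.0.9, Bowtie2 2.2.9, Trimmomatic 0.35 and bcl2fastq 2.19. A genome build is not given in the sources used here, nor is an annotation. FPKM, 1 column per library, is what the authors deposited. The table ends within an entry (31 of 59 values), which was left out of its 2888, so it can be part of a longer one. Names were matched to RefSeq GRCr8, 1729 as symbols and 332 as synonyms. The test took genes that reached 1 FPKM in 4 or more libraries, on log2(FPKM + 0.5), a scale that understates changes of low genes, and used limma 3.58.1 (R 4.3.3) and an intensity trend. All 12 groups shared 1 fit (47 residual degrees of freedom, prior 3.41) without covariates. P was adjusted by Benjamini-Hochberg over the 1278 genes of a comparison (threshold 0.05). SE and 95% intervals come from this fit and are not adjusted for the number of genes. The fit was tested on simulated data.

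FPKM hold no counts. Low entries matched 1, 2 or 3 steps (tolerance log2 0.1) in 62.9%, 11.5% and 1.95% of cases, which did not give whole reads for nearly all genes, so only relative depth was taken. No 2 libraries were identical (0 pairs). Rats are numbered in accession order within a group.

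The comparisons, members and lists were chosen with earlier results of these data known. Named genes carry a symbol and average 1 FPKM or more over the 19 libraries: the 6 smallest p of the change in each direction, the 6 largest rises and falls at 9 months, 6 rises and 4 falls called at both months, 6 rises and 4 falls larger at 18 months, up to 3 per list with the smallest p of the change, any gene called in opposite directions (0 were), and 7 genes fixed by name. Other named genes are list members or were chosen after their values were seen. Alternatives were other pseudocounts, filters, scalings and variance models, and each library left out. List counts and single-gene calls under them, and genes called at both months, were added after seeing the data. Plots were made in matplotlib 3.10.9 (Python 3.11.15).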

Additional observations from a re-analysis of the deposited data

Results flagged for a closer look

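Single rats stood apart from the rest of their group in 20 of 396 combinations of a named gene and a group of 4 or 5, where the gap to the nearest rat exceeded 0.829 or 0.71 of the range. Chance gives about 1 in 20 such flags, which is the share seen here. At 9 months, the high values were Cd163l1 at 4.04 FPKM, Lrrc32 at 3.71 and Ppp1r14a at 20.8 in silica rat 2, and Ahsp at 2.35 in air rat 4. Low values were Dchs1 at 5.20 FPKM and Esr1 at 0.334 in air rat 2 and Prkcb at 4.08 in air rat 3. At 18 months in air, Bcat2 was high at 14.3 in rat 5, Ftl1 at 149 and Hpx at 14.9 in rat 3, and Cxcl17 was low at 29.8 in rat 1 and Rpl13a at 48.9 in rat 4. In silica at 18 months, rat 4 was high for Hpx at 10.4, Relb at 4.51 and Tmem86a at 6.24 and low for Ppp1r14a at 18.7. Irf3 at 29.0 and Serpinh1 at 43.7 were high in rat 1, Oscar at 2.26 in rat 2 and Rpl13a at 64.3 in rat 5.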

How the results depend on the processing

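Of 57 results on counts and medians under other settings 56 stayed within bounds, the exception being 13 air calls with median centring in place of 7. With single libraries left out the count of changed effects ran from 0 to 2, that at 9 months from 319 to 404, that at 18 months from 112 to 214, and the median change of genes higher at other months from -0.0855 to -0.0388. Of 621 single-gene results under other settings 601 kept direction and call, and of 1311 with a library left out 1253 did. Signs reversed for 4 uncalled values. With single libraries left out Cd163l1 at 9 months ran from -0.23 (without silica rat 2 of that month) to 0.21, Cyp2e1 at 9 months from -0.0364 to 0.151 and the change of Sod2 from -0.109 to 0.061. Hbb at 9 months went from -0.37 to 0.37 after quantile normalization. No paired analysis was possible because the titles give each rat a number of its own. With 4 or 5 rats and a median 95% interval of 0.291 to either side, a call over all genes needs a larger change than that, and the relative depth of 0.432 to 2.27 limits low genes most.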
